A study of Mus musculus with 8 samples.

Results

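Cadherins are cell-surface adhesion proteins that hold like cells together through calcium-dependent contacts. The 7 cadherin genes described here are Cdh1 (E-cadherin) and Cdh3 (P-cadherin) of epithelia, Cdh5 (VE-cadherin) and Cdh13 (T-cadherin) of blood vessels, Cdh11 (OB-cadherin) and Cdh2 (N-cadherin) of mesenchyme, and Cdh6 (K-cadherin), best known from the kidney. They were taken by name from the 27828 gene names on the array and were represented by 13 probes on 22 spots. The samples fell into 2 groups of 4, all from the dorsal pancreatic epithelium of e12.5 mouse embryos. The Sox9 mutants (MUT) carried 2 floxed Sox9 alleles and the Pdx1-Cre transgene, and the wild-type samples (WT) carried the same floxed alleles without Cre. The floxed line was on a mixed FVB/N and C57Bl/6J background and the Cre line on C57Bl/6J. Each RNA was pooled from 3 hand-dissected embryonic pancreata and hybridised to a single-colour Agilent array of its own. The Pdx1 promoter drives Cre in the pancreatic epithelium, so the vessels and mesenchyme that come with a dissected bud lie outside the cells in which it drives Cre. Every p-value measures the spread between these pools, which the series text describes as fewer biological replicates than the 4 arrays labelled for each genotype.

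In the junctions of neighbouring cells the outer parts of cadherins bind each other, and their inner tails bind beta-catenin and p120-catenin, which link them through alpha-catenin to the actin skeleton. E-cadherin holds the pancreatic epithelium together, VE-cadherin closes the contacts between endothelial cells, and T-cadherin lacks the inner tail and is anchored in the membrane by a lipid. N-cadherin and OB-cadherin are carried by mesenchymal cells, and mice without N-cadherin form no dorsal pancreas. The comparison of mutant and wild-type samples asks how the RNA of each of these cadherins stands in a pancreatic bud that has lost Sox9, a transcription factor of pancreatic progenitors.

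The probes that the results turn on are given by the first 30 bases of their 60-base sequence, 5′ to 3′, with their position in the scanner files (mouse assembly mm8, strand as listed). The Cdh1 probe is shown because it carries the main difference, and the Cdh5 and Cdh11 probes because probes of these genes gave different values. Cdh11 A_52_P683146 is shown whole, because it alone among these probes held, in an open reading frame, the codons of the calcium-binding linker between cadherin repeats, whose 15 bases are in capitals.
Cdh1 A_51_P137336, chr8:109559041-109559100, plus strand: acattctaacgggaaaaaggagacaagacc
Cdh5 A_52_P248604, chr8:107033388-107033447, plus strand: acttattataagactctagttctcacagac
Cdh5 A_51_P309056, chr8:107032728-107032787, plus strand: tccgtcaacttcaggaaaatggcttgtcga
Cdh11 A_51_P506204, chr8:105523125-105523184, minus strand: tatttaaatgaaggagaagtccacggtgaa
Cdh11 A_52_P437795, chr8:105522702-105522761, minus strand: tattttagtatacatacaaatatcagtatt
Cdh11 A_52_P683146, chr8:105557135-105557194, minus strand: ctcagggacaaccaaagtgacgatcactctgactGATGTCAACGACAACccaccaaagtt
The exon or untranslated region that each probe lies in was not looked up, because no annotation of that assembly was used here. In the order of protein-coding genes of RefSeq on GRCm38.p6, Cdh3 stands directly before Cdh1, and Cdh8, Cdh11 and Cdh5 follow one another, all on chromosome 8. On mm8 the Cdh1 probe begins 114259 bases after the end of the Cdh3 probe.

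Between 59.4% and 77.7% of spots were well above background on each array, and the arrays lay on 3 slides that each held both genotypes. Sox9 itself, the targeted gene, had a log2 signal of -0.61, -1.79, -0.0057 and 0.77 in MUT replicates 1 to 4, against 3.01, 2.13, 1.82 and 2.19 in WT replicates 1 to 4, where 0 is the 75th percentile of the array. Its log2 difference was -2.70, with an adjusted p of 0.0291 (limma, Benjamini-Hochberg over 27389 probes), and the groups did not overlap. Its other tested probes gave -3.27 (limma adjusted p 0.0231) and -1.44 (0.0748), the second missing the threshold. The call of the brightest probe was lost with no filter on dim probes (0.0717) and on leaving out any single array other than MUT replicates 2 and 4 (0.0566 to 0.0850), with log2 differences of -2.85 to -2.46. The pancreatic progenitor genes Pdx1, Ptf1a and Nkx6-1 were well above background on all 4 MUT and all 4 WT arrays. So were 14 of 16 epithelial, 13 of 13 endothelial and 12 of 13 mesenchymal marker genes, so the samples labelled epithelium held RNA of vessels and mesenchyme in both genotypes.

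Among the 7 cadherins, Cdh1 fell and Cdh11 rose in Sox9 mutants, and the other 5 genes did not pass the threshold. Of the 13 probes, 10 cleared background on 4 or more of the 8 arrays and were tested, and each of the 7 genes had such a probe. A gene was called by its brightest tested probe at an adjusted p under 0.05. Over all genes 4.49% were called by that rule, with 1.1% higher and 3.39% lower in mutants. By probe, 2 of the 10 cadherin probes were called, 1 in each direction, where 3.75% of all probes were (0.873% higher and 2.88% lower). The groups did not overlap for 4 of the 10 cadherin probes, 3 higher and 1 lower in mutants, where 13.4% of all tested probes showed such a separation (6.06% higher and 7.36% lower).

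**Figure D1:**
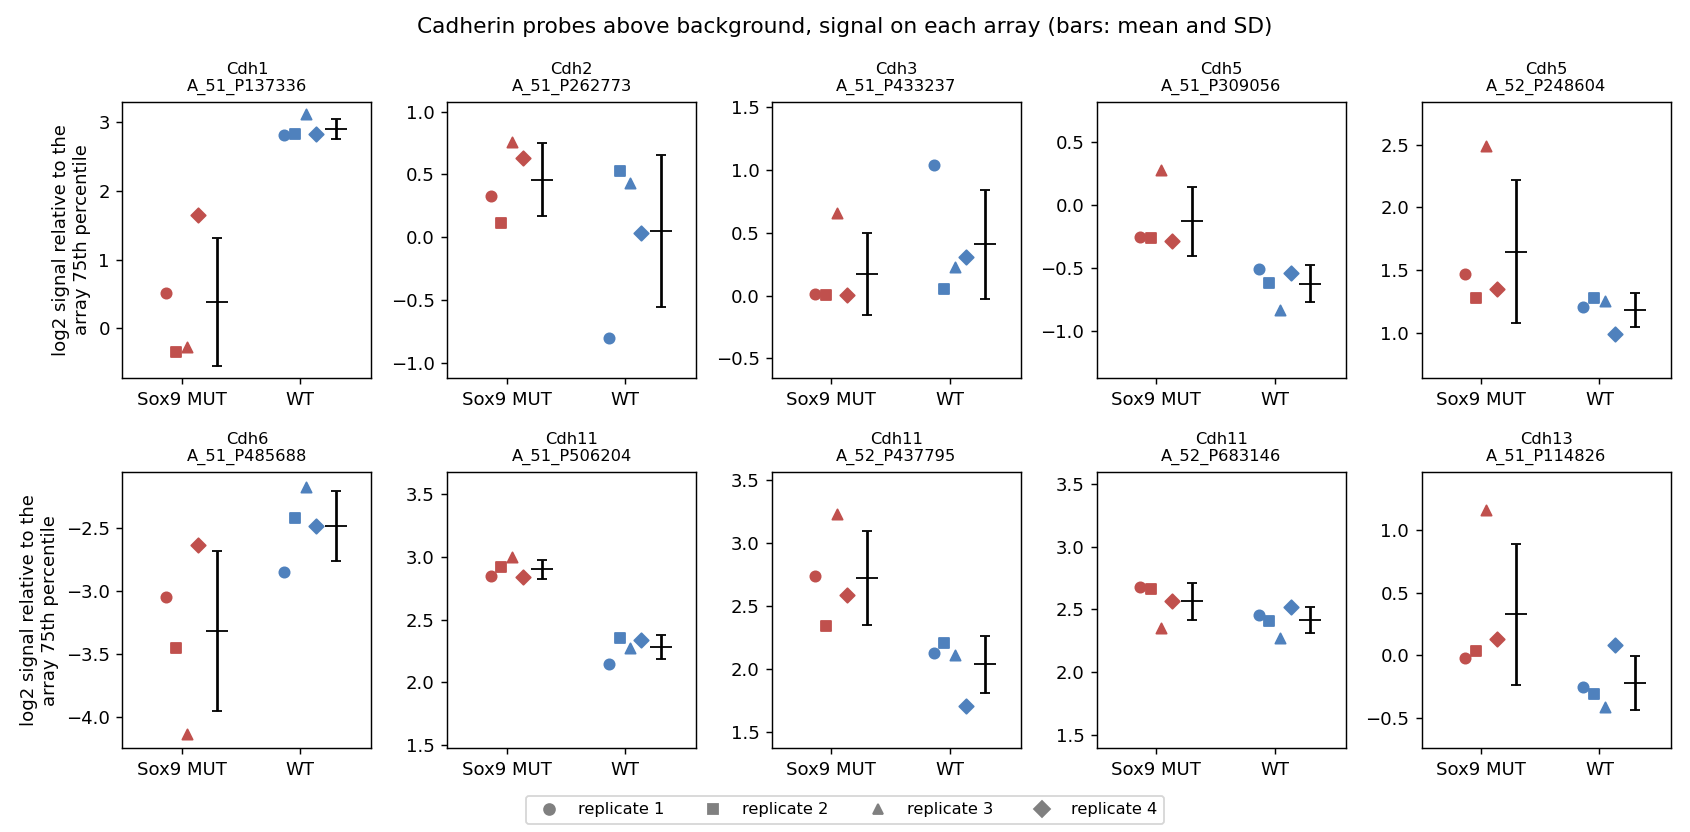
Log2 signal relative to the 75th percentile of the array (vertical axis, its range differing between panels) for the 10 tested cadherin probes, with Sox9 MUT arrays in red, WT arrays in blue, the marker shape giving the replicate number and the bars the mean and SD of 4 arrays. Cdh1 lies lower on every MUT array than on any WT array, Cdh11 A_51_P506204 lies higher on every MUT array, and MUT replicate 3 lies highest for both Cdh5 probes and for Cdh13.

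Cdh1 encodes E-cadherin, the main cadherin of epithelial adherens junctions. Its probe was printed on 10 spots, whose mean processed signal was 877, 410, 342 and 1949 in MUT replicates 1 to 4, against 2619, 4395, 4554 and 4523 in WT replicates 1 to 4. The 10 spots of an array differed by a coefficient of variation of 3.24% to 5.67%, far less than the arrays did. On the log2 scale relative to the array's 75th percentile, the values were 0.51, -0.35, -0.27 and 1.64 in MUT, against 2.82, 2.83, 3.11 and 2.82 in WT. All MUT arrays lay below all WT arrays, and the MUT arrays were more spread. The means were 0.38 ± 0.93 in MUT and 2.89 ± 0.15 in WT (SD, n = 4 each), a log2 difference of -2.51 (SE 0.408), with a limma adjusted p of 0.0169. This is a 5.70-fold lower signal, and the two-sided exact permutation test gave p = 0.0286, its lower limit in this design. Within slides 1, 2 and 3 the log2 difference was -3.10, -2.04 and -3.17. In these bulk samples, fewer epithelial cells and less Cdh1 RNA per cell cannot be told apart. The adjusted p was above 0.05 without WT replicate 1 (0.0520), WT replicate 4 (0.0570) or MUT replicate 1 (0.0530), with a log2 difference between -2.55 and -2.54.

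The fall of Cdh1 stood beside that of other epithelial genes. Of 16 epithelial markers (keratins, claudins, Epcam, Grhl2 and others, without Cdh1), 14 fell and none rose. The median log2 difference was -2.21, where the median over all genes tested was 0.02 and 3.39% of genes were called lower. The other 2 were Krt19 at -0.14 and Spint2 at -0.59 (limma adjusted p 0.886 and 0.881), and both count in the marker mean below. The summed level of the 16 markers, in units of the array's 75th percentile, ranged from 35.7 to 54.7 in MUT arrays and from 94.2 to 134 in WT arrays. That sum leans on the keratins Krt8 and Krt18, the brightest of the list, which had log2 differences of -1.56 and -0.98. The mean of the 16 log2 values was -0.68, -1.36, -0.98 and 0.0015 in MUT replicates 1 to 4, against 1.44, 0.99, 1.19 and 1.09 in WT replicates 1 to 4. The mutant arrays stood in the same order for the markers as for Cdh1, with replicate 4 highest and replicate 2 lowest. Cdh1 minus this mean was 1.14 ± 0.39 in MUT and 1.72 ± 0.24 in WT (SD, n = 4 each), a log2 difference of -0.58 whose groups overlapped. Its exact permutation p was 0.0571, and 0.171 after Benjamini-Hochberg adjustment over 3 such comparisons. With the p-values of the Cdh5 and Cdh11 comparisons given below, even the test's lowest possible p would have missed the threshold after adjustment. The adjusted test therefore cannot decide whether Cdh1 fell beyond the epithelial markers. Within slides 1, 2 and 3 the difference in Cdh1 minus the marker mean was -1.13, -0.51 and -0.54, negative in each.

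Cdh3 encodes P-cadherin, found in epithelia and often beside E-cadherin, and is the neighbour of Cdh1 on the chromosome. The log2 signal of its only probe was 0.013, 0.0012, 0.66 and 0.00074 in MUT, against 1.04, 0.05, 0.23 and 0.31 in WT. MUT replicates 1, 2 and 4 were nearly equal and lay below every WT array, and MUT replicate 3 lay among the WT arrays. The log2 difference of -0.24 (SE 0.248) had a limma adjusted p of 0.776 and did not pass the threshold. Within slides 1, 2 and 3 it was 0.61, -0.22 and -0.67, so its sign differed between slides. Without WT replicate 1 it was -0.027, and without MUT replicate 3 it was -0.40, with no call in either case.

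Set against each other within arrays, the epithelial pair differed. Cdh1 minus Cdh3 was lower by 2.27 on the log2 scale in mutants, at 0.21 ± 1.12 in MUT and 2.49 ± 0.50 in WT (SD, n = 4 each). The exact permutation p was 0.0286, and it was the same after adjustment over the 6 pairs tested. The corresponding log2 difference for Cdh1 was -2.92 against Cdh2, -2.98 against Cdh5, -1.67 against Cdh6, -3.13 against Cdh11 and -3.06 against Cdh13. In all 6 pairs the groups did not overlap, the adjusted exact p was 0.0286, and the difference was negative within each of the 3 slides. All 6 pairs hold Cdh1, so they are not separate results. Each p lay at the lower limit of the test, and the adjustment leaves equal p-values unchanged.

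Cdh5 encodes VE-cadherin, which is made by endothelial cells. Its brighter probe, A_52_P248604, had log2 signals of 1.47, 1.28, 2.49 and 1.35 in MUT, against 1.21, 1.28, 1.26 and 0.99 in WT. MUT replicate 3 stood far above the rest, and MUT replicate 2 lay just below the highest WT array, so the groups overlapped. The log2 difference of 0.46 (SE 0.263) had a limma adjusted p of 0.457. It was 1.21 within slide 1, which held MUT replicate 3, and 0.15 and 0.18 within slides 2 and 3. Without MUT replicate 3 it was 0.18.

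The dimmer Cdh5 probe, A_51_P309056, had log2 signals of -0.25, -0.26, 0.28 and -0.29 in MUT, against -0.50, -0.62, -0.84 and -0.54 in WT. Here every MUT array lay above every WT array, with an exact permutation p of 0.0286, but the limma adjusted p of 0.145 missed the threshold. The log2 difference was 0.50 (SE 0.160) over all arrays and 0.36 without MUT replicate 3. Of 13 endothelial markers, all had a log2 difference above 0, and 1 rose past the threshold, the endothelial sialomucin Emcn at 0.67 (limma adjusted p 0.0436). The median of the list was 0.41, where that of all genes tested was 0.02 and 1.1% of them were called higher. The summed level of the list ranged from 55.1 to 66.3 in MUT arrays and from 45.1 to 50.4 in WT arrays. Cdh5 minus the endothelial mean differed by 0.05 between the groups (exact permutation p 0.943, adjusted 1.0). That value joined unequal parts: it was 0.85 within slide 1 and -0.23 and -0.36 within slides 2 and 3. It was -0.21 without MUT replicate 3, -0.049 without WT replicate 4 and 0.20 without MUT replicate 2. MUT replicate 3 did not stand apart in the endothelial mean itself, with 1.75 beside 1.65, 1.77 and 1.57 in the other MUT arrays.

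Cdh13 encodes T-cadherin, found on endothelium and other cells of the vessel wall. Its tested probe had log2 signals of -0.019, 0.035, 1.16 and 0.13 in MUT, against -0.25, -0.31, -0.41 and 0.084 in WT. As for Cdh5, MUT replicate 3 was far above the other arrays, and WT replicate 4 lay within the MUT range. The log2 difference was 0.55 (SE 0.269), with a limma adjusted p of 0.368, and it was 0.27 without MUT replicate 3. Within slides 1, 2 and 3 it was 1.46, 0.47 and 0.12. The other Cdh13 probe was well above background on no array.

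**Figure D2:**
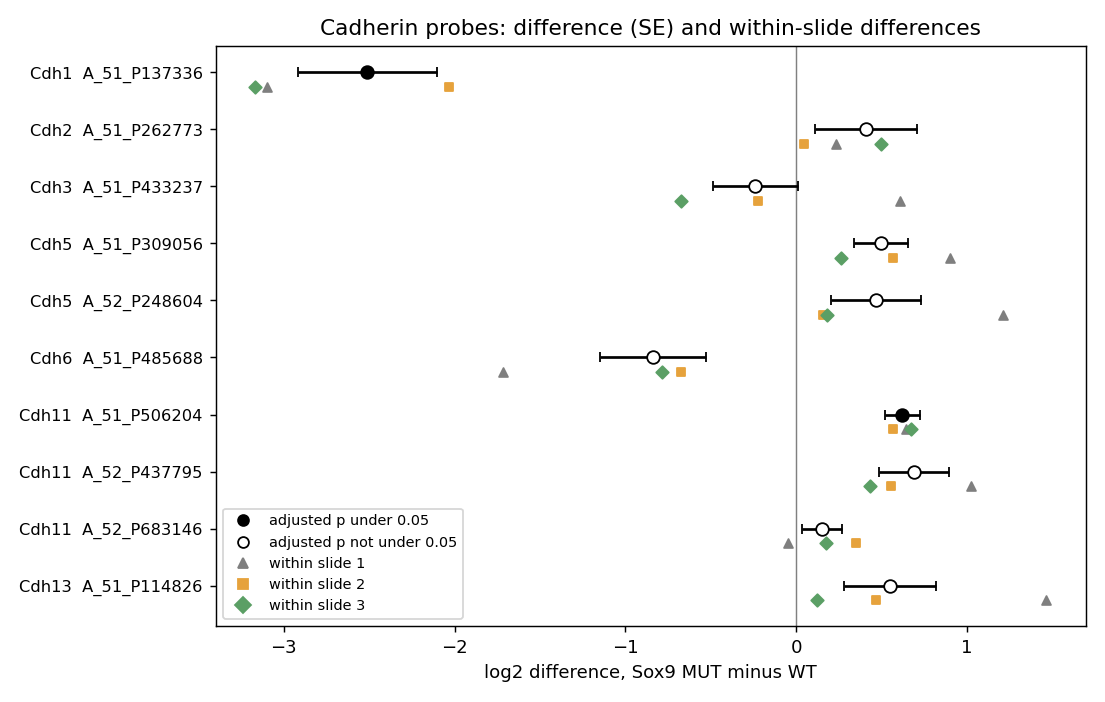
Log2 difference, Sox9 MUT minus WT (horizontal axis), for the 10 tested cadherin probes, with circles for the fit over 8 arrays, bars for its SE, filled circles for an adjusted p under 0.05, and triangles, squares and diamonds for the differences within slides 1, 2 and 3. Cdh1 at -2.51 and Cdh11 A_51_P506204 at 0.62 are the filled circles, and the slide 1 triangle lies apart for Cdh13 and for Cdh5 A_52_P248604.

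Cdh11 encodes OB-cadherin, carried by mesenchymal cells and first described in osteoblasts. Its brightest probe, A_51_P506204, had log2 signals of 2.85, 2.92, 3.0 and 2.84 in MUT, against 2.15, 2.36, 2.28 and 2.34 in WT. The groups were tight and did not overlap. The means were 2.90 ± 0.076 in MUT and 2.28 ± 0.094 in WT (SD, n = 4 each), a log2 difference of 0.62 (SE 0.104) with a limma adjusted p of 0.0188, or 1.54-fold higher. Within slides 1, 2 and 3 it was 0.64, 0.57 and 0.67. The adjusted p was above 0.05 with no filter on dim probes (0.0631) and without WT replicate 3 (0.0547), WT replicate 4 (0.0627), MUT replicate 1 (0.0615) or MUT replicate 2 (0.0603), with log2 differences of 0.62 to 0.64.

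The other Cdh11 probes gave unequal values. A_52_P437795, which by coordinate ends 364 bases before A_51_P506204 begins, had log2 signals of 2.74, 2.34, 3.23 and 2.59 in MUT, against 2.13, 2.21, 2.11 and 1.70 in WT. The groups did not overlap, and the log2 difference was 0.69 (SE 0.206), with a limma adjusted p of 0.118 that missed the threshold. A_52_P683146, the probe that holds the linker codons, by coordinate begins 33951 bases after the end of A_51_P506204. The 3 probes are listed on the minus strand, where a higher coordinate lies upstream. A_52_P683146 had log2 signals of 2.68, 2.66, 2.36 and 2.57 in MUT, against 2.46, 2.41, 2.27 and 2.52 in WT. Its groups overlapped, and the log2 difference was 0.15 (SE 0.118), with a limma adjusted p of 0.649. The difference between probes was tested after these values had been seen: A_51_P506204 minus A_52_P683146 was higher by 0.47 in mutants, with an exact permutation p of 0.0286, and 0.0857 after adjustment over the 3 probe pairs. A_52_P437795 minus A_52_P683146 was higher by 0.54 (exact permutation p 0.0857, adjusted 0.129), and the 2 neighbouring probes differed by -0.07 (exact permutation p 0.83). The rise of Cdh11 was thus called by 1 of its 3 probes.

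Of 13 mesenchymal markers, 12 had a log2 difference above 0 and 2 rose past the threshold. They were Pdgfra, a growth factor receptor of mesenchyme, at 0.80 (limma adjusted p 0.0436) and Nkx3-2, a homeobox gene of splanchnic mesenchyme listed as Bapx1, at 0.91 (0.0117). The median was 0.67, where that of all genes tested was 0.02 and 1.1% of them were called higher. The summed level of the markers ranged from 366 to 482 in MUT arrays and from 240 to 317 in WT arrays. That sum leans on the collagen genes Col1a2, Col1a1 and Col3a1, the brightest of the list (mean log2 signal 7.36, 6.80 and 6.20 in MUT). None of these collagen genes passed the threshold (limma adjusted p 0.0543, 0.300 and 0.0727). By its brightest probe, A_51_P506204, Cdh11 minus the mesenchymal mean was 0.11 ± 0.11 in both genotypes (SD, n = 4 each). It differed by 0.0011 with an exact permutation p of 1.0. The sign of so small a difference turned with the processing and with averaging the tested probes. The marker mean itself was higher by 0.62 in mutants, against 0.69 for Cdh11 A_52_P437795 and 0.15 for A_52_P683146. Neither of these probes was tested alone against the mean, so the match holds for the brightest probe only.

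Cdh2 encodes N-cadherin, carried by mesenchymal, neural and other cells. Its tested probe had log2 signals of 0.33, 0.11, 0.76 and 0.63 in MUT, against -0.80, 0.52, 0.44 and 0.037 in WT. The groups overlapped, and WT replicate 1 was lowest. The log2 difference was 0.41 (SE 0.299), with a limma adjusted p of 0.616, and it was 0.13 without WT replicate 1. Within slides 1, 2 and 3 it was 0.23, 0.047 and 0.49. Of the other Cdh2 probes, A_52_P164578 was well above background on 1 MUT and 1 WT array and A_52_P322725 on none, and neither was tested.

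Cdh6 encodes K-cadherin, which is known from the developing kidney and neural tube. Its only probe, listed over 2024 bases of chr15:12987371-12989394, had log2 signals of -3.05, -3.46, -4.14 and -2.64 in MUT, against -2.85, -2.42, -2.17 and -2.49 in WT. The MUT arrays were lower on average, with MUT replicate 4 inside the WT range. The log2 difference of -0.84 (SE 0.310) had a limma adjusted p of 0.206 and an exact permutation p of 0.0571. It was -1.72, -0.67 and -0.79 within slides 1, 2 and 3, -0.56 without MUT replicate 3, and -0.40 in the authors' normalised table, so its size varied.

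**Figure D3:**
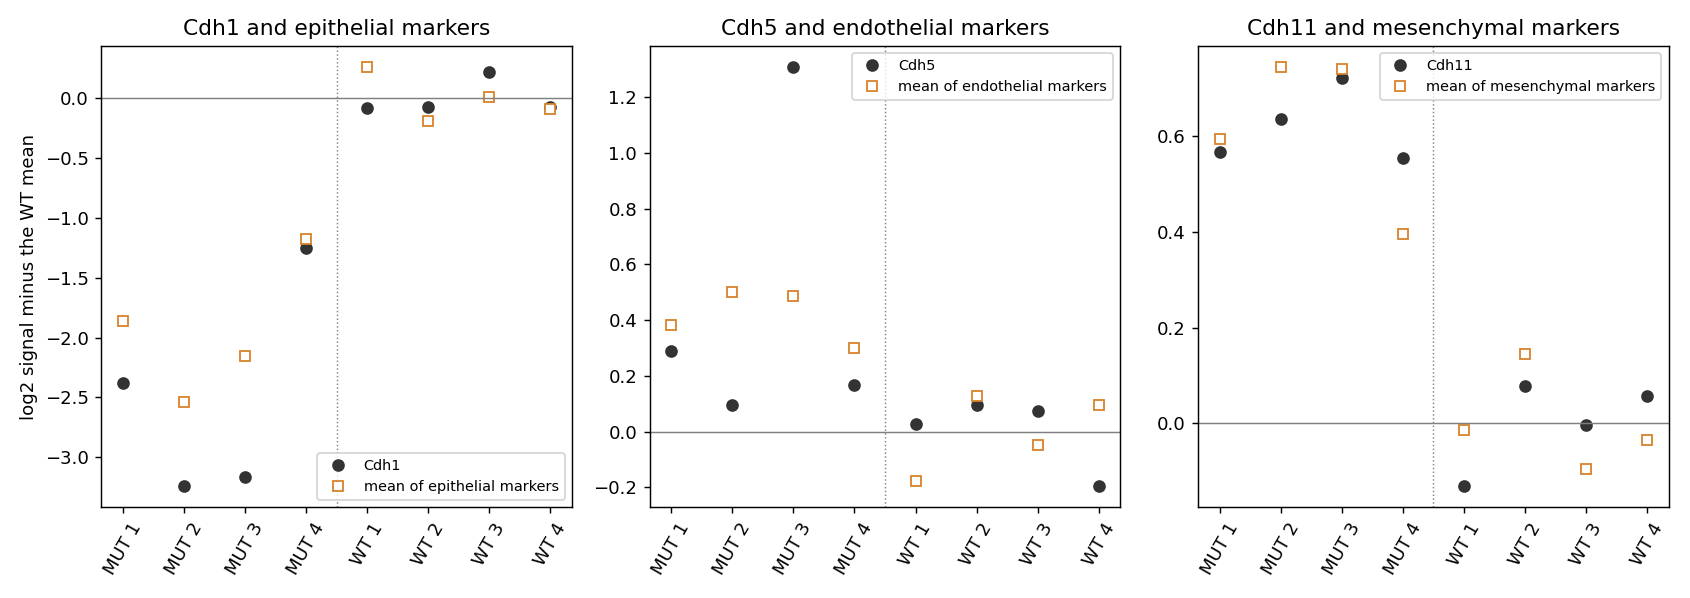
Log2 signal minus the WT mean on each array (vertical axis, its range differing between panels), MUT replicates left of WT replicates, for Cdh1, Cdh5 and Cdh11 (filled circles) and the mean of epithelial, endothelial and mesenchymal markers (open squares). Each gene is shown by its brightest tested probe. By these probes Cdh1 and Cdh11 move with the means of their markers, while the Cdh5 value of MUT replicate 3 stands above its marker mean.

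Markers of 6 other cell types were set beside the cadherins, and the called ones are named after their values were seen. Over all genes tested, 1.1% were called higher and 3.39% lower in mutants. Of 8 mesothelial markers 2 rose (Upk1b by 0.63 and Bnc1 by 0.94 on the log2 scale), with a median log2 difference of 0.83, and summed levels of 8.52 to 12.7 in MUT and 4.42 to 6.41 in WT arrays. Of 6 smooth muscle and pericyte markers 2 rose, Cspg4 and Kcnj8 (median 0.45, summed levels 81.6 to 135 in MUT and 54.1 to 72.3 in WT), and of 7 macrophage markers 3 rose, Adgre1, Csf1r and Fcer1g (median 0.64, 18.8 to 26.4 in MUT and 12.46 to 15.2 in WT). Of 6 liver genes 3 rose, Alb, Afp and Itih2 (median 1.76, 44.9 to 114 in MUT and 15.4 to 22.9 in WT). Of 6 erythroid genes none passed, and the summed levels overlapped (median 0.27, 94.3 to 171 in MUT and 104 to 137 in WT). Of 8 tested neural crest and neuronal markers out of 10, 4 fell, Sox10, Foxd3, Th and Erbb3 (median -0.88, 2.51 to 5.21 in MUT and 6.42 to 8.44 in WT). That sum leans on Erbb3, the brightest of the list in WT (mean log2 signal 1.58), which had a log2 difference of -2.36. No list had all its markers at background: those well above it on all 8 arrays numbered 7 of 8 mesothelial, 6 of 6 smooth muscle, 7 of 7 macrophage, 5 of 6 liver, 5 of 6 erythroid and 7 of 10 neural genes. The part of these cells in the cadherin values was not tested.

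A list of 16 other Cdh genes showed no call, and cadherins outside that list were not examined here. Of the 16 genes, 9 were tested, and 7 had no probe well above background on 4 or more arrays. None passed the threshold, and the median log2 difference was 0.30. The member with the largest difference was Cdh4 (R-cadherin), a relative of N-cadherin, whose brightest probe had a mean log2 signal of -0.57 ± 0.37 in MUT and -1.40 ± 0.10 in WT (SD, n = 4 each). Its log2 difference of 0.82 (SE 0.185) had a limma adjusted p of 0.0506, and the groups did not overlap. Its other tested probe differed by 0.12 with a limma adjusted p of 0.936.

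Of the partners of the cadherins at the adherens junction, 2 fell by their brightest tested probe, and none passed when all tested probes of a gene were averaged (limma adjusted p 0.0505 for Mllt4 and 0.249 for Plekha7). Of 17 genes 15 were tested, with a median log2 difference of -0.11, where 3.39% of all genes tested were called lower. Afadin (listed as Mllt4), which ties nectins to actin, averaged 2.46 ± 0.14 in MUT and 3.18 ± 0.070 in WT (SD, n = 4 each), a log2 difference of -0.72 with a limma adjusted p of 0.0152. Its other 3 tested probes gave -0.64, -0.61 and -0.33, of which the first passed as well. Plekha7, which anchors microtubules at the junction, averaged -1.50 ± 0.36 in MUT and -0.47 ± 0.25 in WT (SD, n = 4 each), a log2 difference of -1.03 with a limma adjusted p of 0.0340. Its other tested probe gave -0.56 with a limma adjusted p of 0.830. The Mllt4 call was lost without WT replicate 4 (0.0599) or MUT replicate 1 (0.0588), and the Plekha7 call with no filter on dim probes (0.0859) and without any single array other than MUT replicate 4 (0.0523 to 0.100). Singled out after their values were seen, the catenins that join the cadherin tail to actin had log2 differences of 0.17 for Ctnnb1, 0.12 for Ctnna1 and -0.11 for Ctnnd1, none past the threshold.

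**Figure D4:**
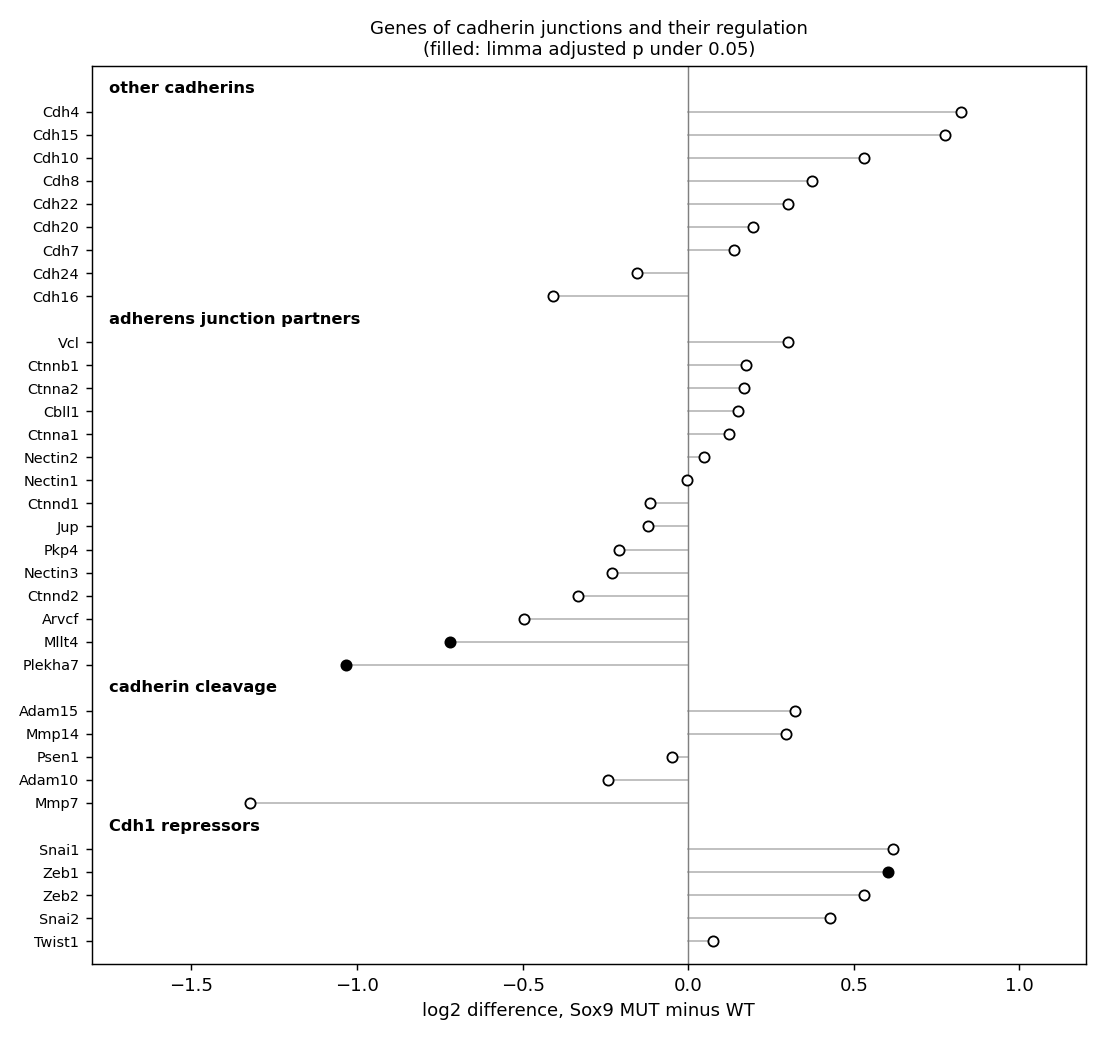
Log2 difference, Sox9 MUT minus WT (horizontal axis), of each tested gene of the 4 lists around the cadherins, by its brightest tested probe, with filled circles for a limma adjusted p under 0.05. The filled circles are Mllt4 at -0.72, Plekha7 at -1.03 and Zeb1 at 0.60.

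Among 5 transcription factors known to repress Cdh1, all had a log2 difference above 0, with a median of 0.53, and 1 rose past the threshold. Over all genes tested the median was 0.02, and 1.1% were called higher. Zeb1, a zinc-finger repressor of epithelial genes that mesenchymal cells also express, averaged 1.73 ± 0.11 in MUT and 1.12 ± 0.096 in WT (SD, n = 4 each), a log2 difference of 0.60 with a limma adjusted p of 0.0247. That call was lost with no filter on dim probes (0.0778) and without any single array other than MUT replicates 3 and 4 (0.0558 to 0.0764). The other 4, named after their values were seen, had log2 differences of 0.62 (Snai1), 0.53 (Zeb2), 0.43 (Snai2) and 0.07 (Twist1), none past the threshold. The mesenchymal marker list given above moved in the same direction as Zeb1, and its part in the value was not tested. Of 5 proteases known to cleave cadherins none passed, with a median of -0.05. The largest difference was that of the metalloprotease Mmp7 at -1.32 (limma adjusted p 0.392), which was well above background on 1 MUT and 3 WT arrays. Its size went with the background handling, at -0.27 after normexp correction and -0.25 in the authors' normalised table, and it was -0.81 without WT replicate 3.

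Genes whose log2 profile over the 8 arrays lay nearest to that of a cadherin were found by the mean absolute difference after each gene was centred on its own mean. For Cdh1 they were Myo5b, an unconventional myosin of apical recycling (0.163), Erich5 (0.166) and Ttyh1 (0.169), with log2 differences between mutant and wild-type of -2.48, -2.70 and -2.45. For Cdh11 they were Zeb1 (0.0463), the basement membrane protein gene Nid1 (0.0533) and the ephrin gene Efna5 (0.0534), with log2 differences of 0.60, 0.58 and 0.56. For Cdh5 the distances were 0.0708 for Gatm, an enzyme of creatine synthesis, 0.0750 for the protein kinase gene Prkce and 0.0839 for Spred2, an inhibitor of Ras signalling. All 3 neighbours of Cdh5 had larger SDs in MUT (0.46 to 0.52) than in WT (0.13 to 0.18), as Cdh5 had (0.57 in MUT and 0.13 in WT). They were chosen for their likeness to Cdh5 on these same arrays, so that spread largely follows from the choice. The likenesses are descriptions over 8 arrays that share the 2 groups.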

How the data were processed

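The authors scanned with Agilent Feature Extraction 9.5.3.1, per the file headers. Their deposited intensity per spot (processed signal) is linear, has had the background subtracted and spatial trends removed, and was not scaled across arrays. Dim spots carry surrogate values. The deposited control and quality columns are flags, other than a measurement. The authors' deposited value table also holds intensity values, whose equal medians of 227 and equal distributions show quantile normalization. The submitters' processing notes name limma without version or steps. It was matched to the scanner files by spot row (rank correlation at least 0.999 on each array). Which background method it used is unknown.

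Here log2 of the processed signal minus each array's 75th percentile was taken, spots of a probe were averaged, and control and outlier spots were left out. Of 41174 probes, 27389 were well above background on at least 4 of 8 arrays and were tested with limma 3.58.1 (lmFit and eBayes, R 4.3.3), two-sided, adjusted over all of them. A gene was represented by its brightest tested probe. Single contrasts used the two-sided exact permutation test over 70 assignments. The limma fit was tested on simulated data, and the permutation test on small fixed examples with known answers. The number of arrays limits the precision. Other settings tried were the background method, the normalization, the probe filter, slide and replicate blocks, array weights and leaving out each array. By rule, the genes named were Sox9, all members, the called genes of each of the 4 junction lists (or else the one with the largest difference) and, for Cdh1, Cdh5 and Cdh11, the 3 genes nearest in profile. The catenins, the uncalled Cdh1 repressors, the called cell type markers, the uncalled epithelial markers and the brightest mesenchymal markers were named outside that rule, after their values were seen. Members and lists were chosen with earlier results of these data known. Python 3.11.15, pandas 2.3.3 and matplotlib 3.10.9 were also used.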

Additional observations from a re-analysis of the deposited data

Results flagged for a closer look

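In 5 of the 20 groups of 4 arrays examined for the 10 tested cadherin probes, a single array lay apart from the others by Dixon's criterion, where chance gives about 1 group in 20. MUT replicate 3 was the highest array in 4 of them, at a log2 signal of 2.49 for Cdh5 A_52_P248604, 0.28 for Cdh5 A_51_P309056, 1.16 for Cdh13 and 0.66 for Cdh3. WT replicate 3 was the highest for Cdh1, at 3.11. The 20 groups read the same arrays through 10 probes, some of them of the same gene. They are therefore not independent, and the flags are not separate events to set against that chance rate. MUT replicate 3 shared slide 1 with WT replicate 2 alone, and it had the lowest share of spots well above background, 59.4%. The part of either in these values was not tested.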

How the results depend on the processing

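The 27389 probes gave 1027 calls, 239 higher and 788 lower in mutants, with 4585 at an unadjusted p under 0.05. The count was 409 with no filter on dim probes, 1675 with slide as a random block (correlation 0.193), 2180 with array weights, and 294 to 972 on leaving out 1 array. The authors' table gave 520 higher and 846 lower, a share higher of 38.1% against 23.3%. Of the 7 cadherin genes, 2 were called under 12 of 19 alternatives, 1 (Cdh1) with no filter, and 0 to 2 on leaving out 1 array: both calls were lost without WT replicate 4 or MUT replicate 1. With replicate number as a block, 326 probes and 0 cadherin genes were called (limma adjusted p 0.0607 for Cdh1 and 0.124 for Cdh11), and the calls of Sox9 (0.0814), Mllt4 (0.0860) and Zeb1 (0.159) were lost. The same-numbered arrays did not deviate together (correlations -0.377, -0.255, 0.0050 and 0.120). They never shared a slide, so these correlations cannot decide whether the numbers pair the samples. Over all 19 alternatives the log2 difference of Cdh1 ranged from -2.93 to -2.20 and that of Cdh11 from 0.49 to 0.65. Those of the other 5 cadherin genes kept their direction and did not pass. Cdh11 A_52_P437795 passed with array weights (limma adjusted p 0.0368). Cdh4 passed under 8 alternatives, among them the authors' table (0.0283) and the fit without MUT replicate 3 (0.0428). Cdh11 minus the mesenchymal mean was -0.0035 after quantile normalization and -0.092 with the mean of tested probes. The cause was not tested in any of these. Low signal limits Cdh6 and the 3 probes that were not tested.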
